A study of Mus musculus with 15 samples.

Results

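The genes described here are 40 genes of the lung's blood vessel lining, the endothelium. They were chosen by symbol from lists of pan-endothelial, capillary, venous and arterial genes, and all 40 were found among the 24054 genes of the count table. All 40 also passed the filter on low counts, which left 15905 genes to test. The RNA came from whole lungs of 15 female wild-type Balb mice in 3 groups of 5. In the first group, mice sensitised to ovalbumin (OVA) by intraperitoneal injection and challenged with nebulised OVA received an antibody against the mouse interleukin-4 receptor alpha chain (anti-IL-4Ra, 30 mg per kg). In the second group, mice sensitised and challenged in the same way received an isotype control antibody. Mice of the third group were sham-sensitised with saline and received the isotype control antibody. The groups are called anti-IL-4Ra, OVA and saline lungs below, and values per library are given in the order of replicates 1 to 5. OVA sensitisation and challenge is a model of allergic airway inflammation, and the receptor chain is shared by the receptors of interleukin-4 and interleukin-13. The sources used here give neither the age of the mice nor the time of collection, and do not say with what the saline mice were challenged. Marker genes of alveolar type 1 and type 2 cells had counts in every library.

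Lung endothelium is a continuous sheet held together by junction proteins such as VE-cadherin (Cdh5). Its capillaries contain a gas-exchange type marked by Car4, Ednrb and Apln and a general capillary type marked by Aplnr and Gpihbp1. Endothelium of larger vessels and venules stores von Willebrand factor (Vwf) and P-selectin (Selp), and in inflamed tissue endothelium makes E-selectin (Sele) and VCAM-1 (Vcam1), which capture leukocytes from the blood.

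Library totals were 12317800 to 16914500 expected counts in anti-IL-4Ra lungs, 10042800 to 14706100 in OVA lungs and 16774300 to 27570700 in saline lungs. Every one of the 40 genes had counts in every library, and the lowest was 7 counts for Sele. Levels are given as CPM, the read count normalised to library size, with libraries scaled to each other by trimmed means. The libraries differed in Rn45s, the ribosomal RNA precursor, which took 9.80, 3.10, 9.79, 12.4 and 1.65% of counts in anti-IL-4Ra lungs, 5.50, 8.47, 4.99, 4.31 and 12.4% in OVA lungs and 2.88, 1.19, 1.71, 1.73 and 1.24% in saline lungs. The Rn45s shares of OVA and saline lungs did not overlap. In whole lung, fewer endothelial cells, less RNA per endothelial cell and a larger share of RNA from other cells cannot be told apart.

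Most of the endothelial genes were lower in OVA lungs than in saline lungs, and P-selectin was higher. By edgeR's quasi-likelihood test with Benjamini-Hochberg adjustment over all 15905 genes and a threshold of 0.05, 34 of the 40 were lower and 1 was higher, against 17.8% of all tested genes lower and 19.3% higher. The median log2 change of the 40 was -1.02, with a range from -1.86 (Eng) to 0.69 (Selp), and that of all tested genes was 0.02. In 30 of the 40 every OVA library lay below every saline library, and in 1, Selp, every OVA library lay above; of all tested genes, 14.5% were fully below and 12.1% fully above. The 5 genes that did not pass the test were Vwf, Sele, Vcam1, Nos3 and Procr, which include 2 of the 4 activation genes and no capillary gene.

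In 15 further fits that each left out 1 library, 28 of the 34 lower calls held in every fit; the other 6 were Sox17, Calcrl, Gpihbp1, Prx, Klf2 and Hey1. With the Rn45s share as a covariate, the median of the 40 was -0.44 and 1 gene, Apln, was called, as were 4.73% of all tested genes. OVA treatment and the Rn45s share cannot be told apart in these libraries. Leaving out the 5 libraries whose Rn45s share was over 6% leaves 3 OVA and 2 anti-IL-4Ra lungs. In that fit 33 of the 40 genes were called between OVA and saline lungs, 32 lower and 1 higher. The median of the 40 was -0.87, and that of all tested genes was -0.01. The share of all tested genes called in that fit is not given here.

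**Figure D1:**
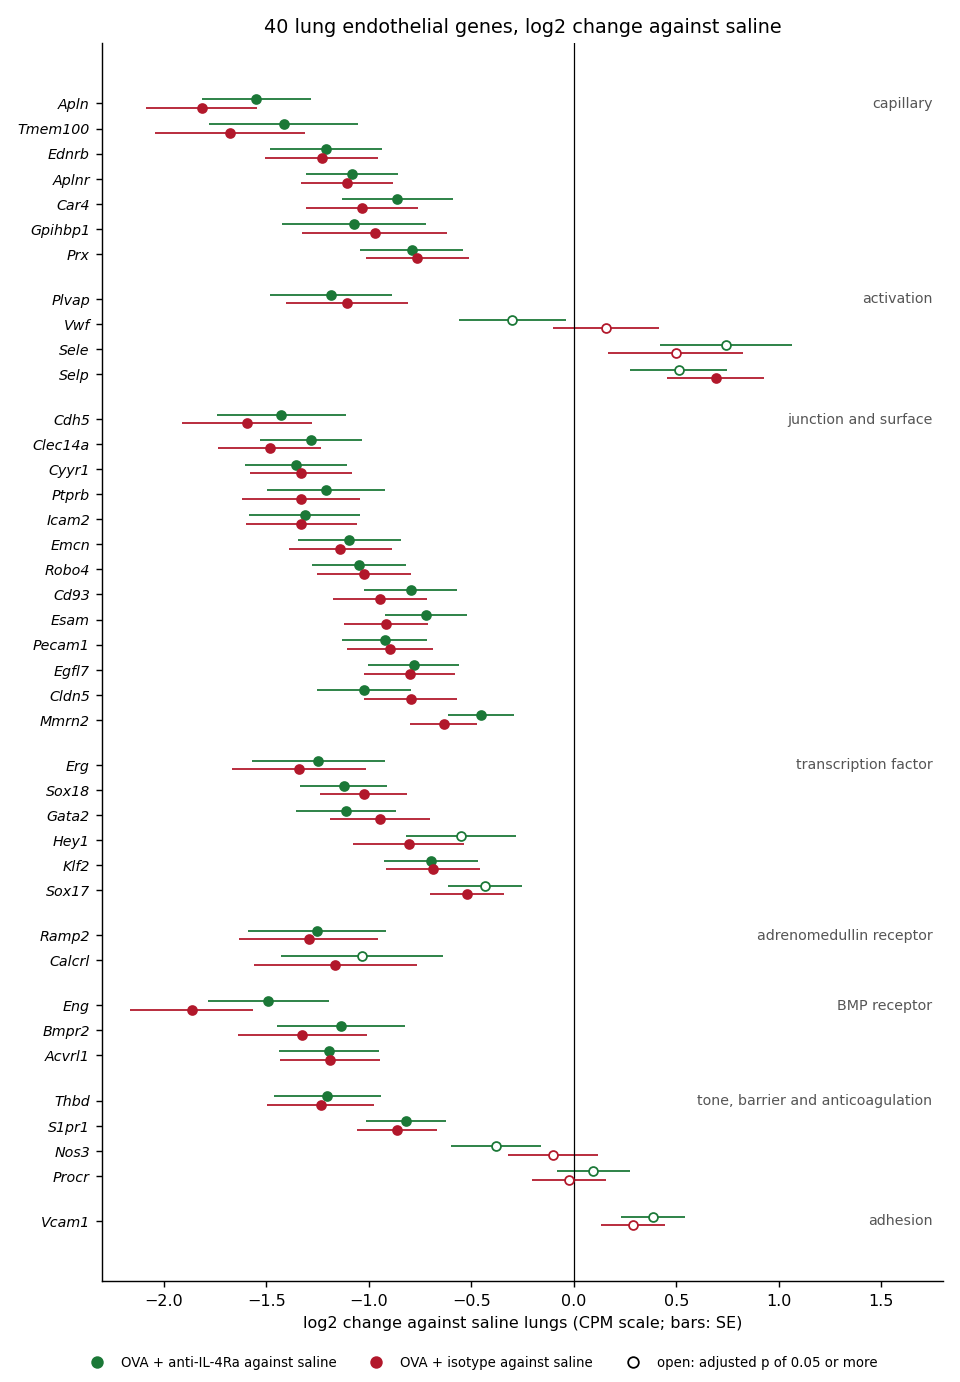
Log2 change of the 40 endothelial genes against saline lungs (x axis, CPM scale), grouped by role, for anti-IL-4Ra lungs (green) and OVA lungs (red). Points are fitted changes, bars are standard errors and open points had an adjusted p of 0.05 or more; most points lie left of 0, while Selp, Sele and Vcam1 lie right of 0 in both comparisons, which share the saline lungs.

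All 7 capillary genes were lower in OVA lungs, with a median log2 change of -1.11. Apelin (Apln), a peptide ligand made by the gas-exchange capillary cell, was at 14.4, 28.7, 10.3, 16.1 and 29.9 CPM in the anti-IL-4Ra lungs, 14.8, 10.2, 18.8, 23.7 and 15.2 CPM in the OVA lungs and 57.7, 60.5, 60.3, 51.5 and 61.6 CPM in the saline lungs. The highest treated library, at 29.9 CPM, was well under the lowest saline library, at 51.5 CPM. The log2 change of OVA against saline lungs, with its standard error, was -1.82 ± 0.27, adjusted p = 0.0002, which is 3.52-fold lower; changes below are given the same way. Aplnr, the apelin receptor, a marker of general capillary cells, was at 68.3, 105, 59.2, 53.2 and 99.5 CPM in the anti-IL-4Ra lungs, 61.6, 44.9, 74.3, 109.6 and 88.0 CPM in the OVA lungs and 185, 154, 154, 150.2 and 172 CPM in the saline lungs. Again no OVA or anti-IL-4Ra library reached the saline range, and the change in OVA lungs was -1.11 ± 0.22, adjusted p = 0.00165.

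Carbonic anhydrase 4 (Car4), a membrane enzyme that interconverts carbon dioxide and bicarbonate, was at 54.8, 106, 42.3, 39.8 and 88.6 CPM in the anti-IL-4Ra lungs, 47.9, 40.7, 80.0, 79.1 and 46.5 CPM in the OVA lungs and 114, 117, 146, 92.2 and 134 CPM in the saline lungs. All OVA libraries were below the saline lungs, while anti-IL-4Ra replicate 2 was inside their range. Its change in OVA lungs was -1.03 ± 0.27, adjusted p = 0.0083. Ednrb, the endothelin B receptor, which clears endothelin, was at 37.1, 71.8, 28.2, 43.3 and 91.6 CPM in the anti-IL-4Ra lungs, 53.9, 35.1, 63.3, 69.8 and 46.1 CPM in the OVA lungs and 143, 129, 115, 97.5 and 146 CPM in the saline lungs. The OVA lungs did not overlap the saline lungs, at a change of -1.23 ± 0.28, adjusted p = 0.003.

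Tmem100, a membrane protein that acts downstream of the ALK1 receptor in endothelium, was at 77.2, 178, 44.4, 58.0 and 189 CPM in the anti-IL-4Ra lungs, 72.7, 51.4, 127, 123 and 82.2 CPM in the OVA lungs and 279, 294, 315, 230.3 and 340.5 CPM in the saline lungs. After Apln it had the next lowest change of the capillary genes, -1.68 ± 0.36, adjusted p = 0.00255, and its OVA and saline libraries did not overlap. Gpihbp1, which carries lipoprotein lipase to the capillary surface, was at 14.9, 60.0, 13.0, 29.7 and 33.9 CPM in the anti-IL-4Ra lungs, 23.9, 21.1, 42.8, 38.6 and 35.8 CPM in the OVA lungs and 46.9, 49.8, 96.0, 62.6 and 63.3 CPM in the saline lungs. Saline replicate 3 stood highest at 96.0 CPM and anti-IL-4Ra replicate 2 lay within the saline range. The Gpihbp1 change was -0.97 ± 0.35, adjusted p = 0.0403, and it missed the threshold without OVA replicate 1, 2 or 5 or saline replicate 3, 4 or 5, with changes of -1.01 to -0.78.

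Prx encodes periaxin, a scaffold protein found in myelinating Schwann cells and in lung endothelium. Its levels were 147, 271, 111, 203 and 207 CPM in the anti-IL-4Ra lungs, 134, 119, 247, 207 and 249 CPM in the OVA lungs and 273, 272, 444, 298 and 337 CPM in the saline lungs. Saline replicate 3 was again the highest library, and all OVA libraries were below all saline libraries. The change was -0.76 ± 0.25, adjusted p = 0.0262, and it missed the threshold without OVA replicate 1 or 2 or saline replicate 3 or 5.

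**Figure D2:**
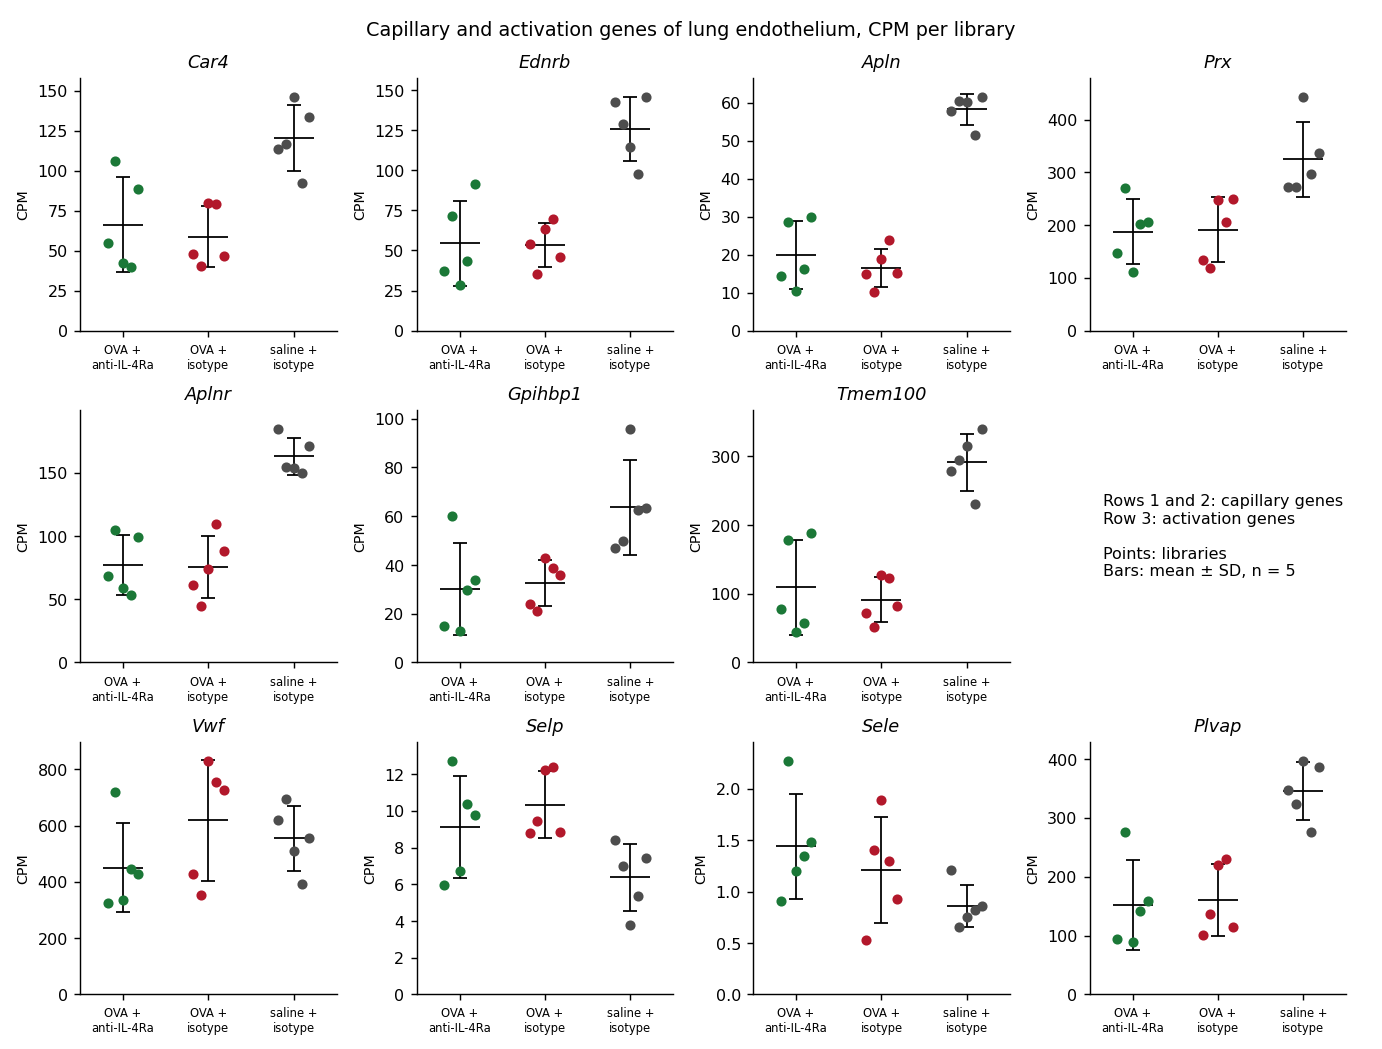
CPM per library (y axes, from 0) of the 7 capillary genes and the 4 activation genes in anti-IL-4Ra, OVA and saline lungs (x axis); points are libraries and bars are mean ± SD (n = 5). In the upper 2 rows the saline libraries lie highest, apart from overlaps with single anti-IL-4Ra lungs in Car4 and Gpihbp1; in the bottom row Plvap was also highest in saline lungs, with 1 anti-IL-4Ra lung at the edge of their range, and Vwf, Selp and Sele were not.

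The 4 activation genes divided. Selp, the P-selectin gene, whose product moves from storage granules to the cell surface and lets leukocytes roll, was at 5.95, 12.7, 6.72, 10.4 and 9.77 CPM in the anti-IL-4Ra lungs, 8.79, 9.43, 12.2, 12.4 and 8.82 CPM in the OVA lungs and 8.39, 6.98, 3.79, 5.34 and 7.45 CPM in the saline lungs. The lowest OVA library, at 8.79 CPM, was above the highest saline library, at 8.39 CPM, while anti-IL-4Ra lungs overlapped both. Selp was higher in OVA lungs with a log2 change of 0.69 ± 0.24, adjusted p = 0.0317, which is 1.62-fold. That call rests on the full set of libraries: without saline replicate 2, 3 or 4 or OVA replicate 3 or 4 the change was 0.55 to 0.68 with adjusted p of 0.0583 to 0.0895.

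Sele, the gene of E-selectin, which endothelium makes after cytokine stimulation, was at 0.909, 2.27, 1.20, 1.35 and 1.48 CPM in the anti-IL-4Ra lungs, 0.530, 1.41, 1.89, 1.30 and 0.923 CPM in the OVA lungs and 1.20, 0.659, 0.757, 0.817 and 0.855 CPM in the saline lungs. The groups overlapped, with means of 1.44 ± 0.511 CPM in anti-IL-4Ra lungs, 1.21 ± 0.513 CPM in OVA lungs and 0.858 ± 0.207 CPM in saline lungs (SD, n = 5 each). The change in OVA lungs was 0.50 ± 0.33, adjusted p = 0.246, with a 95% interval of -0.20 to 1.20, which takes in both 0 and the change of Selp.

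Vwf, whose product binds platelets at sites of vessel injury, was at 324, 717, 335, 446 and 429 CPM in the anti-IL-4Ra lungs, 428, 352, 831, 753 and 727 CPM in the OVA lungs and 620.3, 695, 508, 393 and 556 CPM in the saline lungs. OVA lungs spread around the saline lungs, with 3 libraries above and 1 below their range, and the change was 0.16 ± 0.26, adjusted p = 0.662. Plvap, which forms the diaphragms of endothelial fenestrae and caveolae, was at 94.0, 276, 88.5, 142 and 159 CPM in the anti-IL-4Ra lungs, 100.3, 137, 220.1, 231 and 115 CPM in the OVA lungs and 347, 323, 397, 276 and 386 CPM in the saline lungs. It was lower in OVA lungs, without overlap, with a change of -1.11 ± 0.30, adjusted p = 0.00904, close to the median of the capillary genes. Vcam1, the ligand of the leukocyte integrin VLA-4, which is also expressed by cells other than endothelium, was at 138, 172, 131, 130.1 and 171 CPM in the anti-IL-4Ra lungs, 147, 168, 120.3, 153 and 105 CPM in the OVA lungs and 121, 111, 78.4, 127 and 130.0 CPM in the saline lungs. Every anti-IL-4Ra library was above the saline range by a small margin, OVA lungs overlapped it, and the change in OVA lungs was 0.29 ± 0.16, adjusted p = 0.159.

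Averaged over genes on the log2 CPM scale, the capillary mean minus the activation mean was 1.09, 0.93, 0.56, 0.59 and 1.40 in anti-IL-4Ra lungs, 1.09, 0.33, 0.63, 0.85 and 0.96 in OVA lungs and 1.72, 1.94, 2.42, 2.10 and 2.05 in saline lungs. No OVA or anti-IL-4Ra library reached the saline range. The means were 0.91 ± 0.35 in anti-IL-4Ra lungs, 0.77 ± 0.30 in OVA lungs and 2.05 ± 0.26 in saline lungs (SD, n = 5 each), and the shift of OVA against saline lungs was -1.27. Only the shift between groups can be read, because the offset depends on which genes are averaged. With Plvap left out of the activation genes the shift was -1.67, and with Sele left out it was -1.15. The capillary mean itself was 5.816 log2 CPM in anti-IL-4Ra lungs, 5.804 in OVA lungs and 7.073 in saline lungs. The mean of the 4 activation genes was 4.903, 5.031 and 5.027 in the same order. The shift of OVA lungs thus lay in the capillary mean. The median change of all 40 genes was -1.02, so the shift does not show a change particular to capillary genes.

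The junction and surface genes were all lower in OVA lungs: 13 of 13 were called, with a median change of -1.02. Cdh5, the adhesive protein of endothelial junctions, was at 274, 728, 220.5, 287 and 609 CPM in the anti-IL-4Ra lungs, 292, 254, 527, 513 and 300.2 CPM in the OVA lungs and 1164, 1106, 1220.2, 926 and 1281 CPM in the saline lungs. No treated library overlapped the saline lungs, and the change was -1.59 ± 0.32, adjusted p = 0.00146, or 3.02-fold lower. Pecam1 (CD31), another adhesion protein between endothelial cells, and Cldn5, which seals tight junctions, changed by -0.90 and -0.80, and Esam, another junction protein, by -0.92. Icam2, a leukocyte integrin ligand that endothelium carries at rest, changed by -1.33.

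The sialomucin gene Emcn changed by -1.14, the guidance receptor Robo4 by -1.02 and Ptprb, the phosphatase VE-PTP that holds VE-cadherin and Tie2 in check, by -1.33. Clec14a and Cd93, related C-type lectin proteins of the vessel lining, changed by -1.48 and -0.94, and their matrix ligand Mmrn2 by -0.64, the change nearest 0 among the 13. Egfl7, a secreted protein and host gene of a microRNA, changed by -0.80, and Cyyr1 by -1.33. Of these 13, the OVA libraries overlapped the saline libraries in Egfl7 alone.

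All 6 transcription factor genes were called lower in OVA lungs, with a median of -0.88. Erg, an ETS factor that maintains endothelial identity, was at 28.0, 82.4, 22.1, 24.0 and 60.2 CPM in the anti-IL-4Ra lungs, 34.3, 29.2, 51.9, 50.7 and 36.9 CPM in the OVA lungs and 80.2, 84.8, 132, 96.9 and 121 CPM in the saline lungs. OVA lungs did not overlap saline lungs, while anti-IL-4Ra replicate 2 did, and the change was -1.34 ± 0.33, adjusted p = 0.00506. Sox18, a vessel development factor, changed by -1.03 and Gata2, a factor shared with blood cells, by -0.95, both without overlap. The flow-induced Klf2 (-0.69), the Notch target Hey1 (-0.80) and the arterial factor Sox17 (-0.52) overlapped the saline range. Each of these 3 missed the threshold without some library. For Sox17 these were OVA replicates 1 and 2 and saline replicates 3, 4 and 5; for Klf2 OVA replicates 1 and 5 and saline replicates 3 and 5; for Hey1 OVA replicates 1, 2 and 5 and saline replicates 1 and 5.

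Both genes of the adrenomedullin receptor, which tightens the endothelial barrier, were lower in OVA lungs. Ramp2, its accessory subunit, was at 40.4, 115, 32.8, 49.0 and 81.9 CPM in the anti-IL-4Ra lungs, 39.3, 40.8, 101, 85.5 and 43.0 CPM in the OVA lungs and 141, 143, 188, 123 and 164 CPM in the saline lungs. All OVA libraries were below all saline libraries, with replicates 3 and 4 the highest of the OVA lungs, and the change was -1.29 ± 0.34, adjusted p = 0.00777. Calcrl, the receptor subunit, changed by -1.16 ± 0.40, adjusted p = 0.0307, and missed the threshold without OVA replicate 1, 2 or 5 or saline replicate 1 or 5.

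The 3 BMP pathway receptor genes had a median change of -1.33. Eng, the gene of endoglin, a co-receptor for BMP9 whose gene is mutated in human hereditary haemorrhagic telangiectasia, was at 102, 253, 87.9, 127 and 227 CPM in the anti-IL-4Ra lungs, 88.7, 91.4, 177, 161 and 96.3 CPM in the OVA lungs and 464, 416, 559, 332 and 467 CPM in the saline lungs. No OVA or anti-IL-4Ra library overlapped the saline lungs. It showed the lowest change of all 40 genes, -1.86 ± 0.30, adjusted p = 0.000358, or 3.64-fold lower in OVA lungs. Bmpr2, the receptor gene most often mutated in heritable human pulmonary arterial hypertension, changed by -1.33, and Acvrl1, which encodes ALK1, by -1.19. Neither of these overlapped between OVA and saline lungs.

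Of the 4 genes for vascular tone, barrier and anticoagulation, 2 were lower. Thbd, the gene of thrombomodulin, which turns thrombin into an activator of protein C, was at 228, 377, 151, 214 and 391 CPM in the anti-IL-4Ra lungs, 228, 175, 331, 389.9 and 206 CPM in the OVA lungs and 640.3, 611, 708, 507 and 665 CPM in the saline lungs. Its OVA and saline libraries did not overlap, and the change was -1.23 ± 0.26, adjusted p = 0.00218. S1pr1, the barrier-protecting receptor of sphingosine-1-phosphate, which lymphocytes also carry, changed by -0.86 ± 0.20, adjusted p = 0.0032. Procr, which presents protein C to the thrombin and thrombomodulin complex, was not called (-0.02 ± 0.18, adjusted p = 0.931), nor was Nos3, the endothelial nitric oxide synthase (-0.10 ± 0.22, adjusted p = 0.74). The thrombomodulin gene and its partner receptor gene had changes of -1.23 and -0.02 in the same lungs; the difference between the genes was not tested.

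To see which genes departed from other endothelial genes, the same fit was run on another scale. The geometric mean of 19 endothelial genes outside the 40, among them Kdr, Tie1, Fli1 and Cav1, replaced the whole library. Whether endothelium alone made the RNA of these 19 genes in these lungs was not tested. On that scale the 40 genes had a median change of 0.01 in OVA lungs. Of the 40, 5 were lower against 0.88% of all tested genes, and 8 were higher against 82.2% of all tested genes. The median of all tested genes on this scale was 1.12, so the count of higher genes is far below the background while that of lower genes is above it. The 19 scaling genes also scattered on this scale: 6 of them were called lower and 4 higher, with changes of -0.66 to 1.32. Calls in both directions were thus not particular to the 40 genes. With the Rn45s share as a covariate, 1 of the 40 was called in OVA lungs on this scale, Selp at 1.46. Without the 5 libraries with Rn45s over 6%, 15 of the 40 were called. In that fit the median of the 40 was 0.06 and that of all tested genes 0.94. The directions of the 15 calls are not given here, nor are the shares of all tested genes called in these alternative fits.

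The 5 lower genes were Eng (-0.83), Apln (-0.80), Tmem100 (-0.66), Cdh5 (-0.57) and Clec14a (-0.44), with adjusted p of 0.000746 (Apln) to 0.0147 by edgeR, and in each of them every OVA library lay below every saline library (0.704% of all tested genes). Per 100 counts of the 19-gene mean, Apln was at 20.5, 24.0, 17.7, 24.5 and 26.3 in the anti-IL-4Ra lungs, 20.7, 17.9, 20.6, 23.9 and 18.9 in the OVA lungs and 36.0, 38.8, 33.7, 34.2 and 34.6 in the saline lungs. The highest OVA value was 23.9 and the lowest saline value 33.7. These 5 calls held in each of the 15 fits without 1 library, although Clec14a missed the threshold when the scale was set by Pecam1, Cdh5 and Cldn5 alone (-0.38, adjusted p = 0.0838).

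The 8 genes higher on this scale were Selp (1.75), Sele (1.54), Vcam1 (1.40), Vwf (1.17), Procr (1.06), Nos3 (0.94), Sox17 (0.52) and Mmrn2 (0.42). On the CPM scale only Selp among them was called higher. Sele, Vcam1, Vwf, Procr and Nos3 were not called there, and Sox17 (-0.52) and Mmrn2 (-0.64) were called lower. Per 100 counts of the 19-gene mean, Selp was at 8.49, 10.6, 11.5, 15.7 and 8.57 in the anti-IL-4Ra lungs, 12.3, 16.6, 13.4, 12.5 and 11.0 in the OVA lungs and 5.24, 4.48, 2.11, 3.55 and 4.18 in the saline lungs. Every OVA and anti-IL-4Ra value was above every saline value, and the Selp change was 1.75 ± 0.27, adjusted p = 7.76e-05. Selp, Vwf, Vcam1, Procr and Nos3 had no overlap between OVA and saline lungs on this scale, against 70.2% of all tested genes. Sox17 missed the threshold without OVA replicate 5 or saline replicate 1, 2 or 5, and Mmrn2, at the edge of the threshold, without any of 9 libraries. The other capillary genes, Ednrb, Aplnr, Car4, Gpihbp1 and Prx, ran from -0.19 to 0.28 and were not called, nor was Plvap at -0.07. Leukocyte genes were measured in the same libraries, and 7 of 10 were higher in OVA lungs; their summed level was 1198 to 2079 CPM in anti-IL-4Ra lungs, 1095 to 2590 CPM in OVA lungs and 648 to 900.3 CPM in saline lungs. Of 8 genes of platelets, another source of P-selectin, 7 were tested, of which 3 were lower and none higher in OVA lungs. Summed over all 8, platelet genes were at 22.5 to 36.6 CPM in anti-IL-4Ra lungs, 25.6 to 36.8 CPM in OVA lungs and 29.0 to 53.4 CPM in saline lungs. The part of leukocyte and platelet RNA in Selp, Vcam1 and Procr was not tested.

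**Figure D3:**
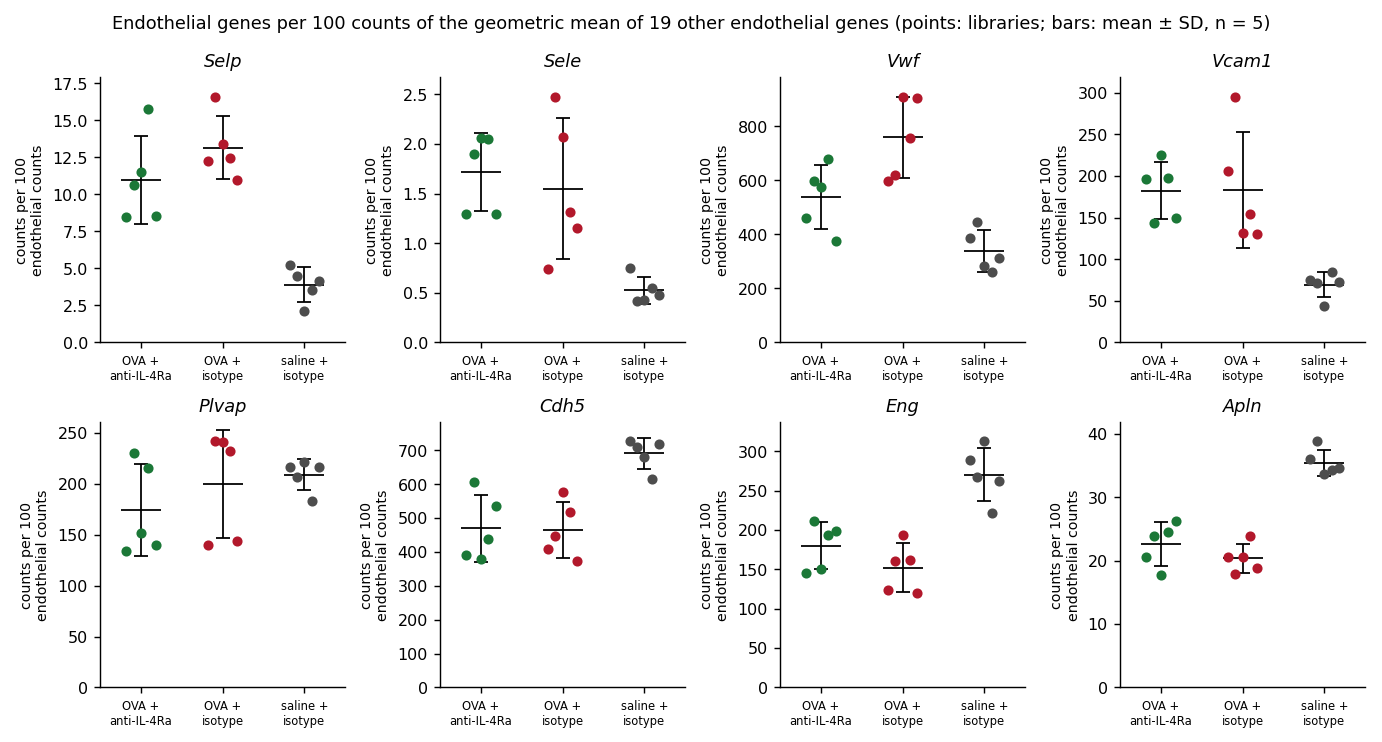
Counts of 8 endothelial genes per 100 counts of the geometric mean of 19 other endothelial genes (y axes, from 0) in anti-IL-4Ra, OVA and saline lungs (x axis); points are libraries and bars are mean ± SD (n = 5). Selp, Vwf and Vcam1 lie higher in OVA lungs than in saline lungs with no overlap, Sele has 1 OVA library inside the saline range, Plvap overlaps, and Cdh5, Eng and Apln lie lower with no overlap.

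The promoters of the genes at the ends of this scale, Eng and Apln at the low end and Selp and Sele at the high end, are printed because they show what sequence lies at genes that moved apart within 1 tissue. Each is the 250 bases before the gene's start, read 5′ to 3′ on the gene's strand, from RefSeq on GRCm38.p6: Eng at chr2:32646345-32646594 (plus strand), Apln at chrX:48034854-48035103 (minus strand), Selp at chr1:164115014-164115263 (plus strand) and Sele at chr1:164047984-164048233 (plus strand). Capitals mark AGGAAG on either strand (CTTCCT on the other), a core that ETS factors such as Erg can bind.
Eng: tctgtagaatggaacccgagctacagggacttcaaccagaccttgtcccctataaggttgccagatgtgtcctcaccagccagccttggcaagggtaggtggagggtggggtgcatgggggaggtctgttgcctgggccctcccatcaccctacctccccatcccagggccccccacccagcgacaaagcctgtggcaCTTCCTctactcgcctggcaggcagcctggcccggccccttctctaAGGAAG
Apln: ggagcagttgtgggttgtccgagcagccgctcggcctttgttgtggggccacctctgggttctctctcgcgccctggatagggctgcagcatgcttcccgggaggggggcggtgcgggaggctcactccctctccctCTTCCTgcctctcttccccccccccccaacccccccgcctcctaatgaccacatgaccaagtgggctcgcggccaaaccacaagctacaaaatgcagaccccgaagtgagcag
Selp: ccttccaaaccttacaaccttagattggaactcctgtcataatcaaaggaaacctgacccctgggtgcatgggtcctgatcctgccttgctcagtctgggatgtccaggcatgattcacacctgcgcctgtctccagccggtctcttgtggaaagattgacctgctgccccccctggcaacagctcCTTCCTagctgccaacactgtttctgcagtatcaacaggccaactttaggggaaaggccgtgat
Sele: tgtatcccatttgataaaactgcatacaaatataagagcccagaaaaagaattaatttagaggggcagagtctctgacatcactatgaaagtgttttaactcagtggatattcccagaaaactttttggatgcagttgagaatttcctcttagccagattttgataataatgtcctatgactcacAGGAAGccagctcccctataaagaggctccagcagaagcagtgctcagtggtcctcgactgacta

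AGGAAG was present in all 4 windows, so it did not separate Eng and Apln from Selp and Sele. These 4 genes were picked by their changes, so nothing follows for other genes. Promoters of 19 of the 40 genes were in the RefSeq table, and 11 of these held AGGAAG (Eng, Emcn, Erg, Calcrl, Egfl7, Robo4, Apln, Bmpr2, Selp, Sele and Cyyr1), against 32.3% of 27025 genes. That motif was added after the first results were seen. Another ETS core, CCGGAA, was in 1 of 19 (Car4) against 13.6%, its extended form ACCGGAAGT in 0 of 19 against 0.892%, the KLF motif CCACACCC in 1 of 19 (Clec14a) against 3.68%, and the SOX core ACAAT in 6 of 19 (Emcn, Erg, Calcrl, Robo4, Clec14a and Cyyr1) against 30.9%, each counted on both strands. CCGGAA lies within ACCGGAAGT. A match is a run of letters, not a measured binding site.

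Treatment with anti-IL-4Ra did not move any of the 40 genes past the threshold when set against OVA lungs. By edgeR 0 of 40 were called, against 0.302% of all tested genes, and 0 of 40 had an unadjusted p under 0.05; DESeq2 and limma-voom also called 0. The median log2 change of anti-IL-4Ra against OVA lungs was 0.04, from -0.46 for Vwf (95% interval -1.01 to 0.10) to 0.37 for Eng (95% interval -0.24 to 0.99). For Selp it was -0.18 (-0.68 to 0.32) and for Sele 0.24 (-0.45 to 0.93). Among capillary genes it ran from -0.10 for Gpihbp1 (-0.84 to 0.65) to 0.27 for Apln (-0.30 to 0.83). These intervals leave room for changes in both directions, so the values do not show that the groups were alike. Leaving out 1 library at a time, the median ran from -0.09 (without anti-IL-4Ra replicate 2) to 0.17 (without OVA replicate 4), with 5 to 28 of the 40 changes below 0, and with the Rn45s share as a covariate it was -0.06. In 0 of the 40 genes did all anti-IL-4Ra libraries lie above or below all OVA libraries; of all tested genes, 0.509% were fully above and 0.66% fully below.

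Against saline lungs, 31 of the 40 genes were lower in anti-IL-4Ra lungs and 0 were higher, against 12.7% and 13.9% of all tested genes, with a median of -1.06. All 31 were among the 34 that were lower in OVA lungs, in a comparison that shares the saline libraries. The others, Sox17 (-0.43), Calcrl (-1.03), Hey1 (-0.55), Nos3 (-0.38), Vwf (-0.30), Procr (0.09), Vcam1 (0.39), Selp (0.51) and Sele (0.74), had adjusted p of 0.0639 or more. Leaving out 1 library at a time, 24 of the 31 held in all 15 fits, while Cd93 missed the threshold without anti-IL-4Ra replicate 3 and Egfl7 without that library or saline replicate 3. Car4, Prx, Gpihbp1, Klf2 and Mmrn2 missed it without either of these and without other libraries. All 7 capillary genes were lower, from -0.79 (Prx) to -1.55 (Apln), and so were all 13 junction and surface genes and all 3 BMP pathway receptor genes. In 24 genes no anti-IL-4Ra library overlapped the saline range from below (10.3% of all tested genes), and in Vcam1 none overlapped from above (9.53%). On the 19-gene scale, 6 genes were lower (0.503% of all tested genes), namely Eng, Apln, Tmem100, Cdh5, Clec14a and Cyyr1. Another 8 were higher (83.3% of all tested genes), with Selp at 1.49 and Sele at 1.69. Of the 19 scaling genes themselves, 4 were called lower and 3 higher in this comparison. All 13 of the 40 genes called in OVA lungs were called here as well. With the Rn45s share as a covariate the 1 gene called on this scale in anti-IL-4Ra lungs was Selp (1.40). Without the 5 libraries with Rn45s over 6%, Apln, Selp, Sele and Vcam1 were called. For both fits the share of all tested genes called is not given here. Sox17 missed the threshold without anti-IL-4Ra replicate 1, Nos3 without replicate 4, and Clec14a without replicate 1, 3 or 4 or saline replicate 1, 2, 4 or 5.

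Anti-IL-4Ra libraries were not uniform. Replicates 2 and 5, whose Rn45s shares were 3.10 and 1.65%, had a mean level over the 40 genes of 6.90 and 6.69 log2 CPM, whereas replicates 1, 3 and 4 had 5.96, 5.72 and 6.04. OVA lungs had 6.02, 5.84, 6.61, 6.62 and 6.20 and saline lungs 7.22, 7.14, 7.32, 7.02 and 7.35, so every treated library was below every saline library. In both anti-IL-4Ra replicates 2 and 5, 24 of the 40 genes were below all saline libraries. The share of all tested genes below them in both is not given here. A set of 2 libraries meets this more easily than a full group. With those 2 as the anti-IL-4Ra group, after leaving out the 5 libraries with Rn45s over 6%, edgeR called 3 genes against saline lungs, Clec14a, Apln and Cyyr1 (5.1% of all tested genes), at a median of -0.60, and 0 against OVA lungs, where the median was 0.37 and 13 genes had an unadjusted p under 0.05. With the Rn45s share as a covariate, 0 of 40 were called against saline lungs, 20 had an unadjusted p under 0.05 and the median was -0.52. The shares of all tested genes with an unadjusted p under 0.05 in these fits are not given here. The counts of 13 and 20 therefore have no background to be read against. The part of Rn45s in these results was not tested further.

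**Figure D4:**
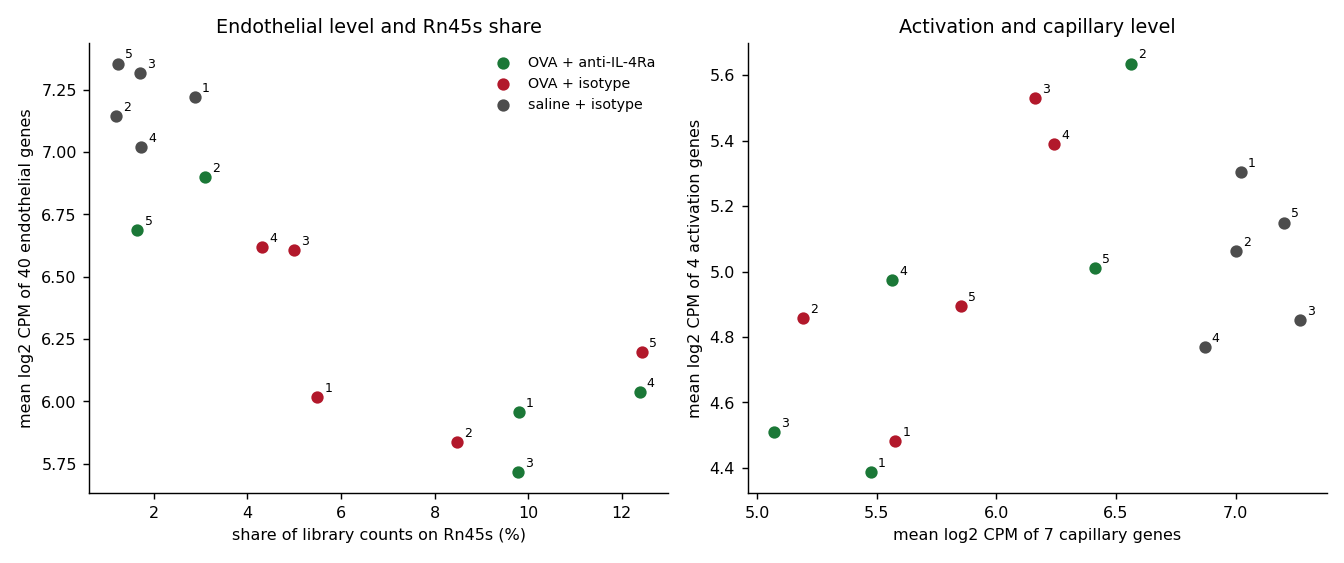
Left, mean log2 CPM of the 40 endothelial genes (y axis) against the share of each library's counts on Rn45s in percent (x axis); right, mean log2 CPM of the 4 activation genes (y axis) against that of the 7 capillary genes (x axis). Each point is a library with its replicate number; saline libraries lie at the upper left of the left panel, at Rn45s shares under 3%, and at the right edge of the right panel.

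Endothelial genes outside the 40 were lower in part. Of the 19 other pan-endothelial genes, 17 were lower in OVA lungs (median -1.01), and so were 7 of 8 other arterial genes (median -1.11), led by the kinase gene Bmx (-1.57). Of 6 other venous genes 4 were lower, and Ackr1, the chemokine-binding receptor of venules, was at 1.40, 1.31, 1.20, 1.41 and 1.08 CPM in anti-IL-4Ra lungs, 1.67, 1.16, 1.42, 1.23 and 0.820 CPM in OVA lungs and 2.03, 0.388, 0.101, 0.436 and 0.489 CPM in saline lungs. One saline library, replicate 1, stood above all others, and the change in OVA lungs was not called (0.83 ± 0.50, adjusted p = 0.207). Of 10 other capillary genes 4 were lower, among them Tbx2 (-0.79) and Fibin (-1.08). Of 7 other activation genes that were tested, 4 were lower, namely Esm1 (-2.66), Edn1 (-2.10), Icam1 (-0.68) and Angpt2 (-0.59), and 1 was higher, Nfkbia (0.29). Lymphatic endothelial genes had a median of -0.02, with 2 of 7 lower (Flt4 and Mmrn1).

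Genes of other lung cells moved in the same libraries. All 6 alveolar type 1 genes were lower in OVA lungs (median -1.33), as were 4 of 6 alveolar type 2 genes, 5 of 10 pericyte and smooth muscle genes and 5 of 5 red blood cell genes. The pericyte and smooth muscle genes ran from -1.28 (Cox4i2) to 0.47 (Tagln), with none called higher. Of 6 fibroblast genes, 2 were lower and 1, Col1a1 (0.91), was higher. Heart muscle genes, also known from the muscle sleeve of pulmonary veins in mice, were called in 0 of 8 between OVA and saline lungs and in 4 of 8, all lower, between anti-IL-4Ra and saline lungs. With a heart muscle score as a covariate, 20 of the 40 genes were lower in anti-IL-4Ra lungs than in saline lungs, against 31 without it. The median of the 40 in that fit was -1.11 and that of all tested genes 0.03, so fewer calls did not go with a smaller median change. Whether calls fell alike among all tested genes is not given here.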

How the data were processed

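RNA of whole snap-frozen lungs was sequenced from 15 mice, 3 groups of 5, grouped by the treatment label; the titles number them as biological replicates. Per the labels' protocols, libraries were strand-specific; the protocols name both ribosomal RNA depletion and selection with oligo-dT beads. The deposited table holds expected counts per gene, and the submitters' processing notes name RSEM 1.2.15, Bowtie2 2.1.0 and build hg38, although the symbols are mouse symbols; the sources used here name no annotation. How RSEM divides reads between similar genes affects such counts.

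Expected counts were rounded, filtered with filterByExpr, scaled by TMM and tested with edgeR 4.0.16 (quasi-likelihood test, R 4.3.3), all 15 libraries in one fit, two-sided, with Benjamini-Hochberg adjustment over all 15905 genes and a threshold of 0.05. Plotted and averaged log2 CPM values used a prior count of 2. The second scale replaced TMM by the geometric mean of 19 of 20 entered endothelial genes (1 symbol was not found). The code was tested on simulated data. Alternatives were RLE size factors, no filter, Rn45s left out, DESeq2 1.42.0, limma-voom (limma 3.58.1), the 2 groups compared only, covariates, a replicate block, 3 scaling genes and each library left out in turn. The 5 libraries with Rn45s over 6% were left out as an alternative chosen after seeing the data.

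The 40 genes and all lists were chosen with earlier results of these data known. Values per library are given for the 7 capillary and 4 activation genes, genes called between anti-IL-4Ra and OVA lungs, genes called higher in OVA lungs, and the gene with the largest change in each other role group. P-values measure the spread between animals of 1 experiment; library totals of 10042800 to 27570700 limit Sele most, at 7 counts or more per library.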

Additional observations from a re-analysis of the deposited data

Results flagged for a closer look

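In a search for single libraries that stood apart from the other 4 of their group, 2 of 120 groups of 5 values exceeded Dixon's critical value, where chance gives about 5%. S1pr1 was at 89.3 CPM in OVA replicate 5, below the 124.7 to 130.9 CPM of the other OVA lungs. Cyyr1 was at 123.5 CPM in saline replicate 4, below the 154 to 166 CPM of the other saline lungs.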

How the results depend on the processing

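Counts of called genes stayed within 1.5 times under RLE size factors, no filter, Rn45s left out, DESeq2, limma-voom and the 2-group fits. With the Rn45s share as a covariate, the genes called were 1 for OVA against saline lungs, 0 for anti-IL-4Ra against saline lungs, and 1 in each of these comparisons on the 19-gene scale. With the heart muscle score as a covariate, anti-IL-4Ra against saline lungs gave 20, and 7 on the 19-gene scale. The share of all tested genes called with that score is not given here. Without the 5 libraries with Rn45s over 6%, anti-IL-4Ra against saline lungs gave 3, and 4 on the 19-gene scale. For the alternatives on the 19-gene scale, the share of all tested genes called is not given here. The capillary minus activation difference without Plvap was 1.65 in anti-IL-4Ra, 1.51 in OVA and 3.18 in saline lungs, and without Sele -0.53, -0.80 and 0.35, since its offset depends on the genes averaged. Leaving out 1 library gave 29 to 35 genes for OVA against saline lungs, 24 to 34 for anti-IL-4Ra against saline lungs, 0 for anti-IL-4Ra against OVA lungs, and 11 to 13 and 12 to 17 on the 19-gene scale against saline lungs.

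Over all 40 genes and all alternatives, the log2 change turned sign in 5 of 1000 recomputed values for OVA against saline lungs, 3 of 1000 for anti-IL-4Ra against saline lungs and 141 of 1000 for anti-IL-4Ra against OVA lungs (31 genes). On the 19-gene scale it did so in 34 of 960 for OVA lungs (16 genes) and 23 of 960 for anti-IL-4Ra lungs (14 genes). None of these was called in the alternative. Among the genes whose values are given in the text, with the Rn45s share as a covariate these included Calcrl in OVA lungs (0.014), Hey1 in anti-IL-4Ra lungs (0.067) and, on the 19-gene scale in OVA lungs, Ednrb (0.069), Prx (-0.011) and Plvap (0.0038). Without the 5 libraries Vwf in anti-IL-4Ra against saline lungs was 0.054, and against OVA lungs Selp was 0.035 and Gpihbp1 0.44. Car4 in OVA lungs on the 19-gene scale was -0.00076 by limma-voom and -0.00070 with the heart muscle score. Leaving out 1 library turned Procr (-0.16 to 0.075) and Nos3 (-0.26 to 0.0082) and Vwf (-0.025 to 0.30) in OVA lungs, Procr in anti-IL-4Ra lungs (-0.018 to 0.19), Gpihbp1 in anti-IL-4Ra against OVA lungs (-0.49 to 0.098), and on the 19-gene scale in OVA lungs Gpihbp1 (-0.016 to 0.22), Car4 (-0.075 to 0.072) and Plvap (-0.14 to 0.038). The cause was not tested.

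Same-numbered libraries mostly did not deviate together (correlations of -0.55 to 0.35 over 15 pairs, 2 above 0.1). The labels do not say whether the numbers pair the animals, and low correlations cannot exclude a pairing. A fit with the replicate number as a block called 30 genes for OVA against saline lungs, without Selp (0.72, adjusted p = 0.0579 by edgeR), 26 for anti-IL-4Ra against saline lungs, 0 for anti-IL-4Ra against OVA lungs, and 11 and 11 on the 19-gene scale.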
